A study of Mus musculus with 8 samples.

Results

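The genes described here encode the subunits of the mitochondrial respiratory chain and of ATP synthase that are transcribed in the nucleus, together with the Ndufaf assembly factors of complex I. They were chosen by symbol, as protein-coding genes whose names begin with Nduf followed by a, b, c, s or v, with Uqcr, with Cox4 to Cox8 or with Atp5, or that are Sdha, Sdhb, Sdhc or Sdhd, and the rule uses no measured value. The rule found 94 gene models, with 93 symbols, among the 55421 in the count table. Of these, 36 belong to complex I, 4 to complex II, 8 to complex III, 20 to complex IV, 18 to complex V and 8 to the assembly factors. Ndufa4 and Ndufa4l2 were counted with complex IV, where the Ndufa4 protein is found.

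The respiratory chain sits in the inner mitochondrial membrane. Complexes I and II pass electrons from NADH and succinate to ubiquinone, complex III passes them on to cytochrome c, and complex IV gives them to oxygen. Complexes I, III and IV pump protons, and complex V, the ATP synthase, lets them flow back to make ATP. A few core subunits are encoded by mitochondrial DNA and the rest by nuclear genes, so the complexes depend on both genomes. Embryonic stem cells of this kind, cultured with serum and LIF, respire and also run glycolysis at a high rate.

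The samples were E14 mouse embryonic stem cells of 129/Ola background, derived from the blastocyst, which lack the miR-290-295 microRNA cluster, in all 4 groups alike. They were transfected with 5 nM of a siPOOL, a mixture of many small interfering RNAs against 1 transcript, and harvested after 36 h. The siPOOLs were directed at Tfap4, a helix-loop-helix factor that binds E-boxes (siTfap4), at Wiz, a zinc finger partner of the G9a and GLP histone methyltransferases (siWiz), and at Zic2, a zinc finger factor (siZic2), and the fourth was the negative control siPOOL (siNeg). Each group had 2 libraries, called biological duplicates in the study's design. Nothing says whether they came from separate cultures or clones, so p-values measure only the spread between these libraries.

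The libraries were made from 500 ng of RNA with a kit that reads the 3′ ends of polyadenylated transcripts, and held 8326675 to 13788856 counts each. The siTfap4 libraries were the shallowest, with 8326675 and 8829051 counts, against 11395211 and 10795092 in siNeg, and the part of depth in the results was not tested. Tfap4 had 12.0 and 15.7 CPM in siTfap4 and 33.4 and 37.1 CPM in siNeg (log2 -1.34, adjusted p = 0.00417), where CPM are normalised read counts relative to library size, scaled by TMM. Wiz had 16.8 and 19.7 CPM in siWiz and 49.9 and 46.1 CPM in siNeg, without overlap, but did not pass the test (log2 -1.40, adjusted p = 0.708). Zic2 was low, with 2.15 and 1.83 CPM in siZic2 and 4.49 and 2.21 CPM in siNeg, again without overlap. It did not pass either (log2 -0.75, adjusted p = 1.0). These adjusted p-values, like those that follow, were given by the quasi-likelihood test of edgeR and adjusted over all genes tested by the Benjamini-Hochberg method. The summed level of 7 stem cell markers was 2200 to 2292 CPM in siTfap4, 2060 to 2132 CPM in siWiz, 2294 to 2390 CPM in siZic2 and 2157 to 2304 CPM in siNeg. Of the 7, 4 passed the test in siTfap4 against siNeg. Nanog was lower (log2 -1.48, adjusted p = 0.0142), and Pou5f1 (1.02, adjusted p = 0.0159), Lin28a (0.81, adjusted p = 0.0315) and Dppa4 (0.78, adjusted p = 0.0399) were higher. Summed fibroblast markers were at most 0.645 CPM in any library, with Postn at 0. Summed trophectoderm markers were 13.8 to 13.9 CPM in siTfap4 and 12.5 to 14.4 CPM in siNeg. Summed primitive endoderm markers were 2.60 to 4.34 CPM in siTfap4 and 5.09 to 5.82 CPM in siNeg. Among the latter, Sox7 passed as lower in siTfap4, with 0.248 and 0.586 CPM against 2.49 and 1.44 CPM in siNeg (log2 -2.20, adjusted p = 0.0440). The part of these markers in the results was not tested.

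Counts were high enough to test 89 of the 94 members. The other 5 were Cox4i2, Cox8b, Cox8c, Ndufs5 and a second gene model of Atp5o. That second Atp5o model runs through to the neighbouring gene Donson and held 0 counts. Ndufs5, a subunit of complex I, had 50 counts over all 8 libraries, while its processed pseudogene BC002163, which shares part of its 3′ end, had 471. In 11 members, 9 of them tested, at least 50% of the 50-base words in the last 300 bases occur in another gene, so reads could be split between the copies.

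Against siNeg, 16 of the 89 tested members were called in siTfap4 at an adjusted p under 0.05, and 12 of them were lower and 4 higher. They make 18.0% of the members, against 15.9% of all 14647 genes called in this comparison. The lower members were 13.5%, against 11.7% of all genes, and the higher ones 4.49%, against 4.24%. DESeq2 called 12 lower and 9 higher, which is 23.6% of the members, against 18.7% of all genes. A fit to protein-coding genes alone, which all members are, called 17 members (19.1%), against 19.1% of 12483 genes. With genes at a mean of at least 5 CPM, 17.6% of members were called, against 22.1% of genes. With no filter on low counts, 28.0% of members were, against 10.9% of 26969 genes. With the correction for end GC content described below the shares were 23.6% and 17.5%. With the replicate number as a block, whose meaning the labels do not give, they were 37.1% and 22.1%. In the fit to all genes, the median log2 fold change was 0.15 over the members and 0.01 over all genes. The count of called members rested on single libraries. It fell without replicate 1 of siTfap4 or of siNeg and rose without replicate 2 of either. The share of all genes called moved the same way, except that it fell without replicate 2 of siNeg. In each of these fits a larger share of the members than of all genes was called. In bulk RNA, fewer cells with a transcript and less of it per cell cannot be told apart.

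Members lower in siTfap4 were found in each of complexes I to V, and most genes of complexes I, III, IV and V were not called. Complex I had 2 lower and 1 higher of 35 tested, complex II 2 lower of 4, complex III 1 lower of 8, complex IV 3 lower and 3 higher of 17, and complex V 4 lower of 17. Of all genes tested, 11.7% were lower and 4.24% higher. None of the 8 Ndufaf assembly factors was called. Of these 8, 1 had an unadjusted p under 0.05, where 32.4% of all genes did. Ndufaf8, the assembly factor with the largest mean CPM, had 74.9 and 88.3 CPM in siTfap4 and 44.9 and 70.4 CPM in siNeg, without overlap (log2 0.50, adjusted p = 0.255). The median log2 fold change was 0.23 in complex I, -0.97 in complex II, 0.27 in complex III, -0.19 in complex IV, 0.30 in complex V and -0.03 in the assembly factors. Without replicate 1 of siNeg it was -0.0903 in complex I, -0.10 in complex III, 0.11 in complex IV and -0.11 in complex V. These 4 medians thus changed sign with 1 library. The complex II median came from 4 genes. It also changed sign, to 0.19, with genes at a mean of at least 5 CPM, where Sdhd, at 4.66 CPM, drops out.

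**Figure D1:**
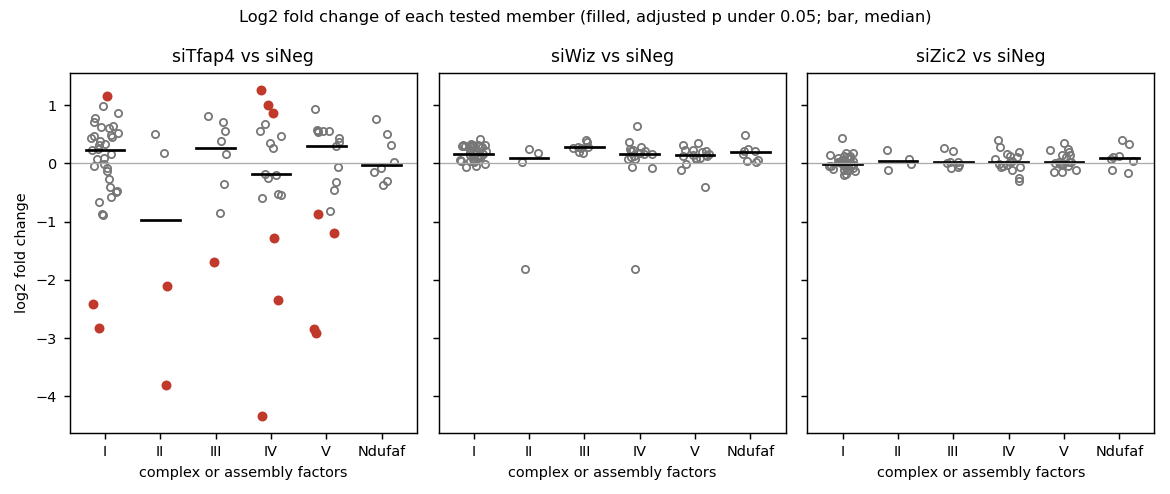
Log2 fold change against siNeg (y axis) of each tested member by complex or Ndufaf assembly factor (x axis), in siTfap4, siWiz and siZic2. Filled points have an adjusted p under 0.05 and bars are medians; 16 members are filled in siTfap4, as low as -4.34 for Cox7c, and none in siWiz or siZic2.

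In complex I, Ndufb3 and Ndufa1, both accessory subunits of the membrane arm, fell in siTfap4. Ndufb3 (chr1:58586384-58595964, plus strand; here and below GENCODE M21 gene spans on GRCm38) had 18.4 and 46.1 CPM in siTfap4, against 229 and 228 CPM in siNeg. The other libraries gave 351 and 160.2 CPM in siWiz, and 212 and 266 CPM in siZic2. Both siTfap4 libraries lay below all 6 others, and the log2 fold change against siNeg was -2.83 (SE 0.42, adjusted p = 0.00129). Ndufa1, an X-linked gene (chrX:37187588-37191163, minus strand), had 9.05 and 23.4 CPM in siTfap4 and 94.2 and 78.8 CPM in siNeg. It had 114 and 63.1 CPM in siWiz and 95.1 and 138 CPM in siZic2, so that again both siTfap4 libraries were the lowest (log2 -2.41 against siNeg, SE 0.40, adjusted p = 0.00227). Without replicate 2 of siTfap4 the log2 fold changes were -3.64 for Ndufb3 and -3.26 for Ndufa1.

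Ndufa12, an accessory subunit next to the NADH-oxidizing arm, was higher in siTfap4, with 337 and 270.0 CPM against 103 and 170.1 CPM in siNeg. The libraries did not overlap, and siWiz (102 and 162 CPM) and siZic2 (103 and 151 CPM) lay within or near the range of siNeg (log2 1.15, SE 0.31, adjusted p = 0.0247). The call was lost without replicate 1 of siTfap4 (log2 0.98, adjusted p = 0.153) or replicate 1 of siNeg (log2 0.81, adjusted p = 0.193). Of the 50-base words in the end of Ndufa12, 55.4% are shared with the processed pseudogene Gm15920, so its counts are uncertain. Gm15920 had 428 and 587 counts in siTfap4 and 386 and 648 counts in siNeg. Of the remaining complex I genes, 32 were not called. Ndufa2, the complex I member with the largest mean CPM (a scale not adjusted for transcript length), had 652 and 599 CPM in siTfap4 and 212 and 422 CPM in siNeg, which did not overlap but did not pass (log2 0.98, adjusted p = 0.0621).

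In complex II, the 2 membrane anchor subunits Sdhc and Sdhd were called lower in siTfap4, and the catalytic flavoprotein Sdha and the iron-sulfur subunit Sdhb were not called. Sdhc (chr1:171127165-171150603, minus strand) had 22.9 and 48.1 CPM in siTfap4, against 142 and 165 CPM in siNeg. It had 232 and 134 CPM in siWiz and 176 and 186 CPM in siZic2, so both siTfap4 libraries stood below the rest (log2 -2.11 against siNeg, SE 0.34, adjusted p = 0.00195; -2.74 without replicate 2 of siTfap4). Sdhd had 0.124 and 0.938 CPM in siTfap4, and 14.5 and 0.865 CPM in siNeg, where the 2 groups overlapped. Its call (log2 -3.81, SE 1.10, adjusted p = 0.0333) rested on replicate 1 of siNeg, which alone held 174 counts against 9 in replicate 2. Without that library the log2 fold change was -0.69 (adjusted p = 0.725), without replicate 1 of siTfap4 -3.03 (adjusted p = 0.238), without replicate 2 of siTfap4 -5.84 and without replicate 2 of siNeg -4.71. Sdha had 258 and 251 CPM in siTfap4 and 202 and 251 CPM in siNeg, which overlapped (log2 0.17, adjusted p = 0.628).

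In complex III, 1 member fell, Uqcrfs1, which encodes the Rieske iron-sulfur protein that passes electrons to cytochrome c1. Uqcrfs1 (chr13:30540308-30545362, minus strand) had 35.6 and 55.5 CPM in siTfap4 and 139.7 and 155 CPM in siNeg. In siWiz it had 229.5 and 124 CPM and in siZic2 167 and 174 CPM, all above siTfap4 (log2 -1.69 against siNeg, SE 0.30, adjusted p = 0.00339). Uqcrq, a small subunit with the largest mean CPM in the complex, had 502 and 857 CPM in siTfap4 and 421 and 799.7 CPM in siNeg, with overlap (log2 0.15, adjusted p = 0.789).

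Complex IV held the largest fall among the 89 tested members, in Cox7c, one of its small nuclear subunits. Cox7c (chr13:86044816-86046904, minus strand) had 31.1 and 80.1 CPM in siTfap4, against 1167 and 1089 CPM in siNeg, which is 20.3-fold lower (log2 -4.34, SE 0.52, adjusted p = 0.000415; -5.18 without replicate 2 of siTfap4). In siWiz it had 1597 and 570.1 CPM and in siZic2 1201 and 1793 CPM, so that the siTfap4 libraries were the lowest and the siWiz pair was split. Of the 50-base words in the end of Cox7c, 99.2% are shared with processed pseudogenes, so its counts are uncertain. Over all 8 libraries Gm10012, Gm12338 and Gm20091 had 53, 127 and 5 counts, against 84182 for Cox7c. In siTfap4 only Gm12338 had a count, which was 1.

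Ndufa4, once placed in complex I and found in complex IV, had 7.07 and 35.5 CPM in siTfap4 and 94.5 and 122 CPM in siNeg. In siWiz it had 115 and 88.8 CPM and in siZic2 108 and 138 CPM, with no overlap with siTfap4 (log2 -2.34 against siNeg, SE 0.49, adjusted p = 0.00783). The siTfap4 libraries stood apart, and the log2 fold change was -3.93 without replicate 2 and -1.60 without replicate 1. Cox7b, a small X-linked subunit, had 77.9 and 218 CPM in siTfap4 and 323 and 394 CPM in siNeg, again with no overlap (log2 -1.28, SE 0.37, adjusted p = 0.0327). The Cox7b call was lost without replicate 1 of siTfap4 (log2 -0.72, adjusted p = 0.188), replicate 1 of siNeg (-1.43, adjusted p = 0.0746) or replicate 2 of siNeg (-1.13, adjusted p = 0.0993), and the value was -2.20 without replicate 2 of siTfap4.

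The 3 complex IV members called higher belong to the Cox7a and Cox6a families, in which 1 subunit exists in several forms. Cox7a2l, which joins complexes III and IV into supercomplexes, had 393 and 306 CPM in siTfap4 and 130.3 and 221 CPM in siNeg (log2 0.99, SE 0.28, adjusted p = 0.0320). Cox7a2, the form found in most tissues, had 958 and 892 CPM in siTfap4 and 382 and 634 CPM in siNeg (log2 0.87, SE 0.28, adjusted p = 0.0499). Cox6a2, the form of heart and skeletal muscle, had 21.9 and 19.5 CPM in siTfap4 and 5.65 and 11.6 CPM in siNeg (log2 1.27, SE 0.36, adjusted p = 0.0328). In all 3 the groups did not overlap, and in all 3 replicate 1 of siNeg was the lower siNeg library. Without it the log2 fold changes were 0.64, 0.53 and 0.81 for Cox7a2l, Cox7a2 and Cox6a2, with adjusted p-values of 0.232, 0.310 and 0.238. All 3 also lost the call without replicate 1 of siTfap4 (adjusted p = 0.196, 0.200 and 0.166). Cox6a2 was at 1.87 without replicate 2 of siNeg. Cox7a2l lost the call without either siZic2 library (adjusted p = 0.0562 and 0.0558), and Cox7a2 without any siWiz or siZic2 library or replicate 2 of siTfap4 (adjusted p from 0.0575 to 0.0826).

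The other forms in these families were not called in siTfap4. Cox7a1, the muscle form, had 16.6 and 20.6 CPM in siTfap4 and 15.5 and 26.9 CPM in siNeg, and Cox6a1, the general form, had 555 and 592 CPM in siTfap4 and 373 and 526 CPM in siNeg. Cox4i1 had 797 and 916 CPM in siTfap4 and 413 and 753 CPM in siNeg (log2 0.55, adjusted p = 0.241), with its hypoxia-linked partner Cox4i2 too low to test, at 1 to 7 counts in each library. Cox6b1 had 203 and 307 CPM in siTfap4 and 242 and 344 CPM in siNeg, while its testis form Cox6b2 had 83.8 and 67.6 CPM in siTfap4 and 51.8 and 43.0 CPM in siNeg, without overlap (log2 0.68, adjusted p = 0.0644). Cox8a had 182 and 300.4 CPM in siTfap4 and 258 and 437 CPM in siNeg, and Cox8b and Cox8c held at most 14 counts in any library. Cox7b2 did not exceed 1.58 CPM, and Ndufa4l2 had 11.0 and 8.09 CPM in siTfap4 and 10.4 and 5.48 CPM in siNeg. The end of Ndufa4l2 lies opposite an exon of Shmt2, which had 39270 counts, and whether strand was used in counting is not given.

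**Figure D2:**
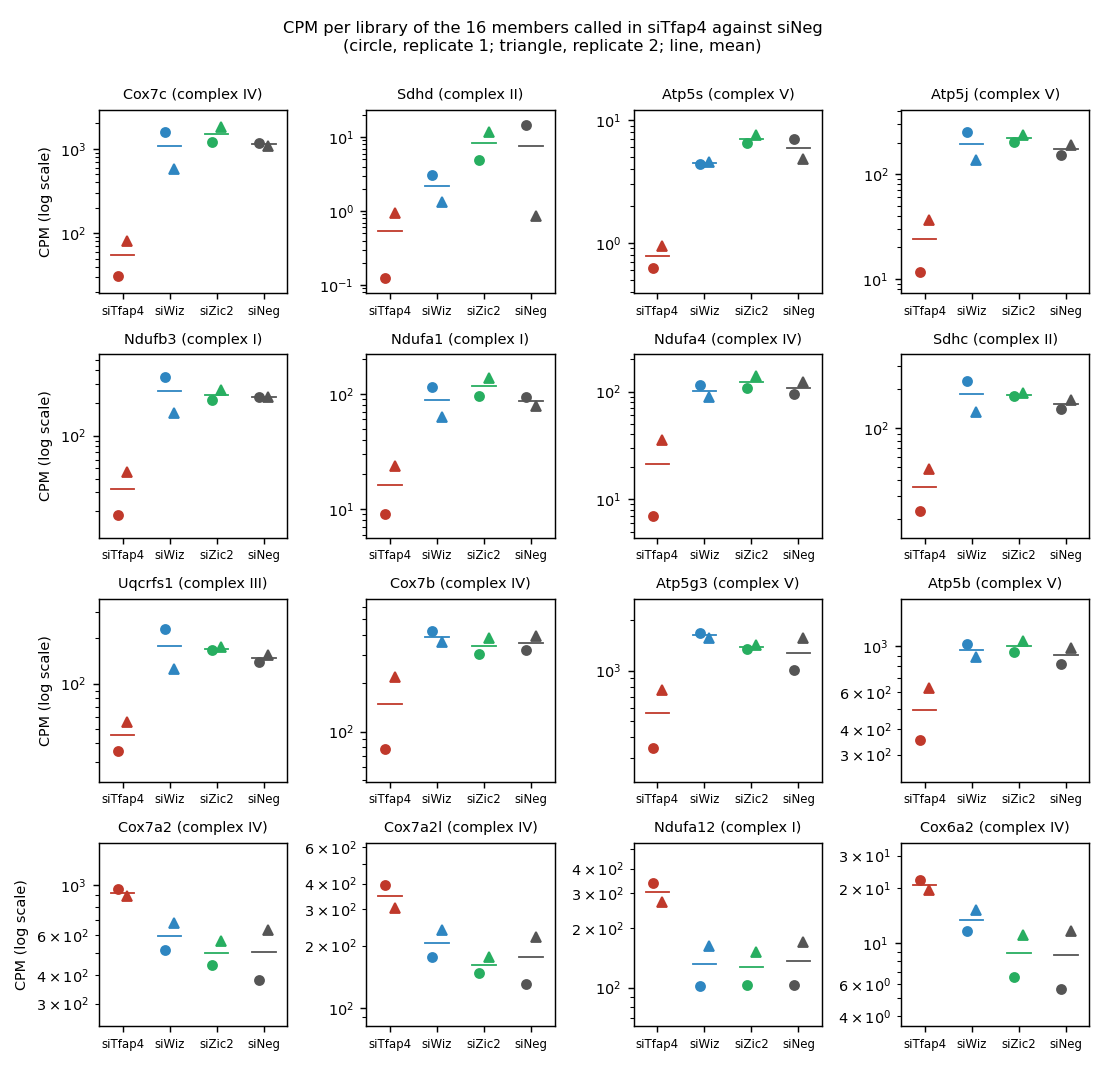
CPM on a log axis (y) in each library of siTfap4, siWiz, siZic2 and siNeg (x) for the 16 members called in siTfap4 against siNeg; circles are replicate 1, triangles replicate 2 and lines the mean of 2 libraries. Cox7c is at 31.1 and 80.1 CPM in siTfap4 and at 1167 and 1089 CPM in siNeg, and only in Sdhd do the libraries of siTfap4 and siNeg overlap.

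In complex V, 4 members were lower in siTfap4. Atp5j, coupling factor 6 in the peripheral stalk (chr16:84827866-84835625, minus strand), had 11.7 and 36.5 CPM in siTfap4 and 153 and 192 CPM in siNeg. It had 256 and 137 CPM in siWiz and 201 and 238 CPM in siZic2, above siTfap4 in every library (log2 -2.84 against siNeg, SE 0.44, adjusted p = 0.00146; -2.24 without replicate 1 of siTfap4 and -3.89 without replicate 2). Atp5s, also called factor B (chr12:69724950-69744660, plus strand), was low, with 0.620 and 0.938 CPM in siTfap4 (5 and 8 counts), and 7.07 and 4.80 CPM in siNeg (85 and 50 counts). It had 4.37 and 4.58 CPM in siWiz and 6.51 and 7.53 CPM in siZic2, again all above siTfap4 (log2 -2.91 against siNeg, SE 0.46, adjusted p = 0.00167).

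The proton-carrying c ring of complex V is built from 1 mature protein encoded by 3 genes, Atp5g1, Atp5g2 and Atp5g3. Atp5g3, with the largest mean CPM in the complex, had 348 and 771 CPM in siTfap4 and 1005 and 1560 CPM in siNeg, with no overlap (log2 -1.20, SE 0.34, adjusted p = 0.0308). Its call was lost without replicate 1 of siTfap4 (log2 -0.73, adjusted p = 0.234) or replicate 2 of siNeg (-0.84, adjusted p = 0.140), and the value was -1.88 without replicate 2 of siTfap4. Atp5g1 had 390.3 and 361 CPM in siTfap4 and 208 and 304 CPM in siNeg, which did not overlap but did not pass (log2 0.56, adjusted p = 0.142), and Atp5g2 had 5.21 and 3.99 CPM in siTfap4 and 3.49 and 3.65 CPM in siNeg. Of the 50-base words in the ends of Atp5g1 and Atp5g2, 54.2% and 100.0% are shared with other gene models, so their counts are uncertain. Atp5b, the catalytic beta subunit, had 355 and 630.1 CPM in siTfap4 and 821 and 986 CPM in siNeg (log2 -0.88, SE 0.28, adjusted p = 0.0491). The Atp5b groups did not overlap, and the call held when replicate 2 of siTfap4 was left out and was lost when any other library was (adjusted p from 0.0625 to 0.332). By the smallest p, Sdhd and Atp5b stood outside the 10 lower members that the naming rule takes and were named after their values were seen.

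The 8 members Cox7c, Ndufb3, Atp5j, Atp5s, Sdhc, Ndufa1, Uqcrfs1 and Ndufa4, all lower in siTfap4, kept their calls with each of the 8 libraries left out in turn. They also kept them in the other alternatives that could be fitted for them. The other 8, among them all 4 higher members, lost the call in at least 1 alternative. The largest adjusted p among the 8 that kept it was 0.0463, for Uqcrfs1.

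Summed over all 94 members, the level was 19425 and 23086 CPM in siTfap4 and 16936 and 24987 CPM in siNeg, a mean of 101% of siNeg, and the siTfap4 libraries lay between the siNeg libraries. The sum for complex I was 5829 and 6735 CPM in siTfap4 and 4385 and 6747 CPM in siNeg (113% of siNeg). For complex II it was 558 and 625 CPM in siTfap4 and 518 and 681 CPM in siNeg (98.7%). Both lay inside the siNeg range. For complex III it was 2401 and 2877 CPM in siTfap4 and 1696 and 2807 CPM in siNeg (117%), for complex IV 4742 and 5830 CPM in siTfap4 and 4876 and 6683 CPM in siNeg (91.5%), and for complex V 5624 and 6704 CPM in siTfap4 and 5230 and 7756 CPM in siNeg (94.9%). In every complex the groups overlapped. Without Cox7c, complex IV came to 112% of siNeg.

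**Figure D3:**
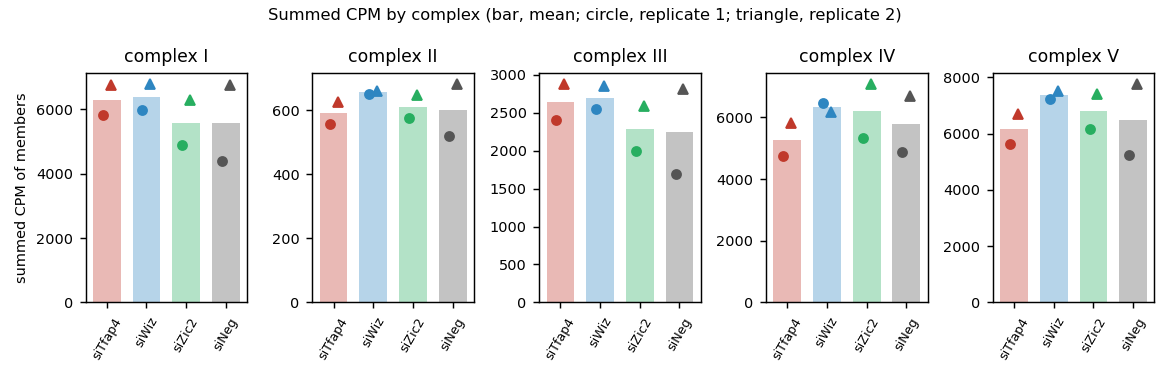
Summed CPM of all members of each complex (y axis, from 0) in siTfap4, siWiz, siZic2 and siNeg (x axis); bars are means of 2 libraries, circles replicate 1 and triangles replicate 2. The siNeg libraries stand further apart (16936 and 24987 CPM over all members) than those of siWiz (23202 and 24275 CPM).

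Both siTfap4 libraries lay below both siNeg libraries in 16 members (18.0%, against 29.5% of all genes) and above them in 30 (33.7%, against 29.6%). In complex I, 3 members were lower and 10 higher in this sense, and in complex V 5 were lower and 7 higher. At an unadjusted p under 0.05 there were 33 of the 89 tested members, against 4745 of all 14647 genes (32.4%).

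In siWiz, no member was called against siNeg, as no gene was (0.0% of all genes by edgeR, and 0.00683%, 1 gene, by DESeq2). No member had an unadjusted p under 0.05, where 1.82% of all genes did. The log2 fold change was positive in 79 of 89 members, with a median of 0.17 and of -0.0 over all genes. Without replicate 1 of siNeg the medians were negative in complex I (-0.0735), III (-0.0621), IV (-0.0757), V (-0.0942) and the assembly factors (-0.0492), and that in complex II was 0.0955. The sum over all members was 23202 and 24275 CPM, inside the siNeg range. Sdhd (log2 -1.81), Ndufaf6, an assembly factor of complex I (0.49), and Cox6a2 (0.64) had the smallest p-values, with adjusted p = 1.0 in each. Ndufaf6 had 32.4 and 32.2 CPM in siWiz and 18.8 and 27.1 CPM in siNeg. Cox6a2 had 11.7 and 15.2 CPM in siWiz and 5.65 and 11.6 CPM in siNeg, and both pairs stood apart by little. Sdhd had 3.03 and 1.34 CPM in siWiz, within the siNeg range. Libraries stood apart in 1 member as lower (1.12%, against 12.8% of all genes) and in 8 as higher (8.99%, against 12.3%).

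In siZic2, no member was called against siNeg either (0.0% of all genes by edgeR and by DESeq2), and none had an unadjusted p under 0.05, where 0.587% of all genes did. The median log2 fold change was 0.01, with 49 members positive and 40 negative, and the range over members was -0.30 to 0.43. The 3 members with the smallest p-values were Ndufaf6 (28.1 and 32.2 CPM in siZic2, 18.8 and 27.1 CPM in siNeg), Cox6b2 (40.4 and 36.5 CPM in siZic2, 51.8 and 43.0 CPM in siNeg) and Ndufaf1, another complex I assembly factor (13.0 and 18.0 CPM in siZic2, 10.2 and 14.2 CPM in siNeg). Their log2 fold changes were 0.39, -0.30 and 0.34. A p that misses the threshold does not show that levels were equal, and Zic2 and Wiz themselves did not pass.

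Between siPOOLs, which share the siTfap4 libraries with the comparison above, 14 members were called in siTfap4 against siWiz, 13 lower and 1 higher. That is 15.7% of the members, against 15.1% of all genes (10.4% lower and 4.66% higher). The 5 with the smallest p were Cox7c (log2 -4.28), Ndufb3 (-2.99), Atp5j (-3.03), Sdhc (-2.36) and Uqcrfs1 (-1.96), and the higher one was Ndufa12 (1.20, adjusted p = 0.0206). Without replicate 1 of siTfap4 or replicate 1 of siWiz, 7 members were called, where 2.53% and 2.61% of all genes were, and without replicate 2 of siTfap4, 26 were, where 22.3% of all genes were. Uqcrb, a small subunit of complex III (106 and 213 CPM in siTfap4, 345 and 319 CPM in siWiz), and Ndufab1, the mitochondrial acyl carrier protein (56.8 and 124 CPM in siTfap4, 197 and 194 CPM in siWiz), were called lower here (adjusted p = 0.0383 and 0.0402) and not against siNeg. Both were named after their values were seen.

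Against siZic2, 21 members were called in siTfap4, 13 lower and 8 higher, which is 23.6%, against 23.1% of all genes (14.7% lower and 8.41% higher). Cox7c (log2 -4.75), Atp5j (-3.19), Ndufa1 (-2.83), Atp5s (-3.14) and Ndufb3 (-2.89) had the smallest p. Called here and in no comparison with siNeg were Ndufa2, Ndufa5, Cox6b2 and Atp5k as higher and Atp5f1 as lower, all named after their values were seen. Atp5k, which helps dimerize complex V, had 1019 and 886 CPM in siTfap4 and 372 and 527 CPM in siZic2 (log2 1.08, SE 0.32, adjusted p = 0.0271), with no overlap. The count was 8, 9 and 10 without replicate 1 of siTfap4, replicate 1 of siZic2 and replicate 2 of siZic2, where 6.01%, 8.6% and 8.25% of all genes were called, and 32 without replicate 2 of siTfap4, where 27.8% were. No member was called in siWiz against siZic2 (0.0% of all genes).

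Within groups, the members did not scatter evenly between the 2 libraries. Replicate 2 was the higher library for 61 of 89 members in siTfap4, while it was so for 58 of them in siWiz, for 84 in siZic2 and for 80 in siNeg, where over all genes the shares were 50.5%, 49.5%, 51.9% and 49.8%. All 12 members lower in siTfap4 were lower in replicate 1 than in replicate 2 of siTfap4, and 11 of the 12 were lower in replicate 2 than in replicate 1 of siWiz. In siZic2 replicate 2 was the higher library for all 12 lower members, and in siNeg it was so for 7 of the 12. All 4 higher members were higher in replicate 1 of siTfap4 and in replicate 2 of siWiz, siZic2 and siNeg.

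Over the 89 members, the log2 fold change in siTfap4 against siNeg and the log2 ratio of the 2 siWiz libraries had a Pearson correlation of 0.82 (Spearman 0.74), and over 14638 genes 0.47 (0.45). The points are genes of the same 4 and 2 libraries, so they share depth and scaling and are not independent replicates, and no test is given. The part in the siTfap4 result of whatever split the siWiz libraries was not tested. The same correlation with the siZic2 pair was 0.01 over the members (Spearman 0.26).

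**Figure D4:**
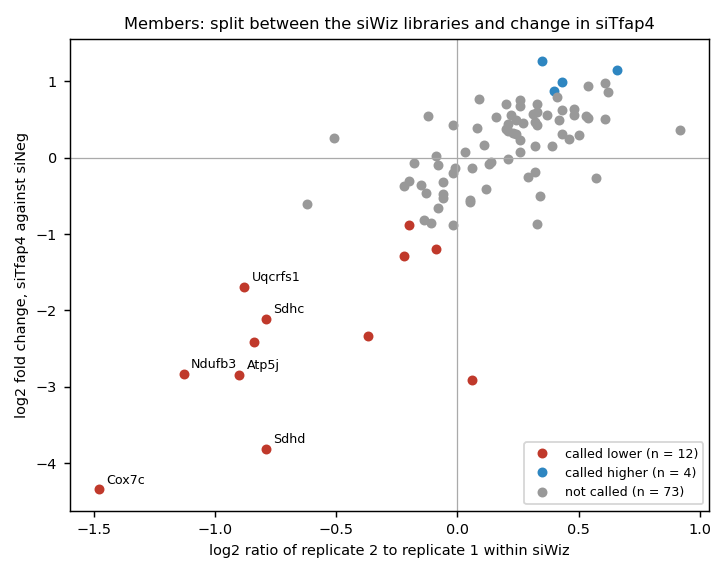
Log2 fold change in siTfap4 against siNeg (y axis) and log2 ratio of replicate 2 to replicate 1 within siWiz (x axis) for the 89 tested members. Of the 12 called lower members 11 lie to the left of 0, with Cox7c furthest, and Atp5s is at 0.06, and the Pearson correlation is 0.82.

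The base composition of the transcript ends, which a 3′ library reads, also differed among the members. The last 300 bases had a median GC content of 37.2% in the 12 lower members, 47.0% in the 4 higher ones and 46.7% in the 73 not called. Over all protein-coding genes the medians were 39.0% in those lower, 50.7% in those higher and 42.7% in those not called. Of 46 members with an end GC content under 45%, 11 were lower and 1 higher. Of 43 members at or above it 1 was lower and 3 were higher. Over all genes 11.7% were lower and 4.24% higher, without a split by GC content. The Pearson correlation of end GC content with the log2 fold change in siTfap4 was 0.50 over the 89 members (Spearman 0.55) and 0.26 over 14638 genes (0.33). With the log2 ratio of replicate 2 to replicate 1 it was, over the members, -0.51 for siTfap4, 0.48 for siWiz, 0.02 for siZic2 and 0.31 for siNeg. Over the 14638 genes the siTfap4 value was -0.1, and those for siWiz, siZic2 and siNeg were 0.27, 0.09 and 0.35. The points share libraries and the correlations are descriptions. After a correction for end GC content, chosen after seeing the data, 21 members were called (23.6%, against 17.5% of the 12483 protein-coding genes tested) and 15 of the 16 above kept their call, Atp5b being the exception (log2 -0.69, adjusted p = 0.0782). Cox7c was then at -4.06 and Uqcrfs1 at -1.39. The part of end composition in these differences beyond that correction was not tested.

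**Figure D5:**
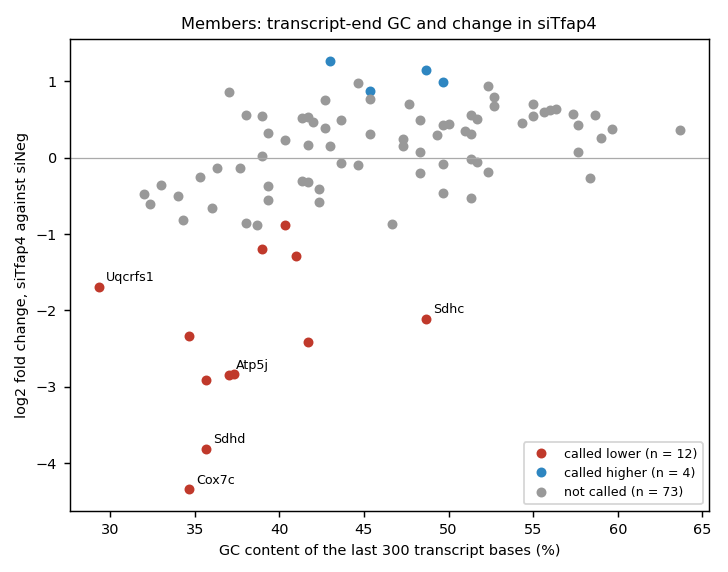
GC content of the last 300 transcript bases (x axis, percent) and log2 fold change in siTfap4 against siNeg (y axis) of the 89 tested members. The lower members lie mostly under 45%, with Sdhc, at 48.7%, to the right of the rest, and the Pearson correlation is 0.50.

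Promoters were examined for the E-box that Tfap4 binds and for the sites of Gabpa and Nrf1, which are known activators of respiratory chain genes. RefSeq promoters of GRCm38.p6, spanning 250 bases before to 50 after the start, were found for 76 of the 94 members. Both strands were searched for CAGCTG, the E-box of Tfap4, for CANNTG, any E-box, which includes the first, for CCGGAAG, an ETS core that Gabpa binds, and for GCATGCG, part of the Nrf1 site. The promoters shown are those of the 2 members of complexes IV and I with the smallest p among the lower ones, of the 1 lower member with CAGCTG, of the higher member with the smallest p, and of Atp5k, which has matches to both the ETS core and the Nrf1 part. Each is written 5′ to 3′ on the gene's strand, with capitals for matches to any of these motifs.

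Cox7c (chr13:86046746-86047045, minus strand): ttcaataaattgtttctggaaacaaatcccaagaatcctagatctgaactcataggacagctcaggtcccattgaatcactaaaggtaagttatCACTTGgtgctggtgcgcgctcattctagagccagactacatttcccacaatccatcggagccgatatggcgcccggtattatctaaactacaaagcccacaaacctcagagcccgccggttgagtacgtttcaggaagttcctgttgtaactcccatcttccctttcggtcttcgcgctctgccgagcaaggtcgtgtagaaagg
Ndufb3 (chr1:58586147-58586446, plus strand): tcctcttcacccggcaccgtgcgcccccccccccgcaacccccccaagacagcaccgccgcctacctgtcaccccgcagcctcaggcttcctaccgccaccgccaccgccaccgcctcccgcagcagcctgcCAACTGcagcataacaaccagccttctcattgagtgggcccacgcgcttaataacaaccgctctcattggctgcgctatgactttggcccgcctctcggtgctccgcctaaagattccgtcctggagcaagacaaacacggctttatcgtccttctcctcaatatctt
Atp5b (chr10:128083057-128083356, plus strand): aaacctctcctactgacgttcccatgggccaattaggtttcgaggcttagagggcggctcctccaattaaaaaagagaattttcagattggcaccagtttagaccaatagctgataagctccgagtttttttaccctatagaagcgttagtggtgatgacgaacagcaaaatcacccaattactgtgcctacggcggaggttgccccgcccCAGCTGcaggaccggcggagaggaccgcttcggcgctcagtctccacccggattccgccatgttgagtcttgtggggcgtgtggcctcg
Ndufa12 (chr10:94198785-94199084, plus strand): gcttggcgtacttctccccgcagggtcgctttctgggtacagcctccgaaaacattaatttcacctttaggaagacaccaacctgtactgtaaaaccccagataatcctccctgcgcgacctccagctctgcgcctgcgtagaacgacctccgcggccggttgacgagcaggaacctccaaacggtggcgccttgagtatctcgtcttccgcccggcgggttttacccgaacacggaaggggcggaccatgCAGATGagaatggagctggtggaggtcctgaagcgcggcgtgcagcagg
Atp5k (chr5:108434350-108434649, minus strand): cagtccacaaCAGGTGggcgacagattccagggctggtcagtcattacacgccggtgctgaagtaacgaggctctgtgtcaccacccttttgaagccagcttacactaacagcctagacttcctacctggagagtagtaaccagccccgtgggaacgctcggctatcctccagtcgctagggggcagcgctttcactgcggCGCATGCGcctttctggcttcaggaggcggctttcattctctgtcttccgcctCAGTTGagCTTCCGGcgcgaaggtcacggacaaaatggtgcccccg

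CAGCTG was found in 6 of 76 member promoters (7.89%), against 16.3% of 32851 RefSeq promoters. It was found in 1 of 11 promoters of lower members, Atp5b, in none of 3 of higher members and in 3 of 60 of members not called. The rest were the promoters of Ndufs5 and Cox8b, whose counts were too low to test. Any E-box was found in 72.4% of member promoters and 72.3% of all. CCGGAAG was found in 22.4% of member promoters, against 8.86% of all, and GCATGCG in 15.8%, against 3.58%. Of promoters of lower members, 1 of 11 held CCGGAAG and 0 held GCATGCG, and of those of members not called 16 and 12 of 60 did. A match is a description of these letters and not of binding.

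Among genes around the respiratory chain, a list of the tricarboxylic acid cycle, which supplies its electrons, also held the pyruvate dehydrogenase subunits Pdha1, Pdhb and Dlat. In siTfap4 against siNeg 8 of its 16 genes were called, where 15.9% of all genes were. Of these, 7 were lower, Dlat among them, and 1 was higher. The median log2 fold change of the 16 was -0.57. The named ones by the smallest p were Fh1, fumarate hydratase (8.10 ± 4.62 CPM in siTfap4 and 87.5 ± 16.6 CPM in siNeg, SD, n = 2 each, log2 -3.43), Suclg2, a succinyl-CoA ligase subunit (log2 -2.97), and Cs, citrate synthase (log2 -1.31), with adjusted p-values of 0.000415, 0.00146 and 0.00730. Assembly factors of complexes II to V, with complex I factors outside the symbol rule, gave 11 lower and 2 higher of 37 tested, with a median of -0.13. Cox17, a copper chaperone of complex IV, had 3.46 ± 1.91 CPM in siTfap4 and 72.4 ± 20.3 CPM in siNeg (log2 -4.38, SE 0.45, adjusted p = 0.000414), with Cox15, a heme A synthase, at -2.69 and Timmdc1, a complex I assembly factor, at -1.60 (adjusted p = 0.00330 and 0.00450). Both counts rested on single libraries. They fell without replicate 1 of siTfap4 or of siNeg, and so did the share of all genes called. The count of assembly factors was 5 without replicate 2 of siNeg and 6 without either siZic2 library, where 12.8% and 10.9% of all genes were called.

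The list of electron carriers, which also held the complex III subunit Cyc1, gave 2 lower of 5, where 15.9% of all genes were called. These were Etfa and Etfdh of the electron transfer flavoprotein pathway (log2 -2.08 and -1.26, adjusted p = 0.00241 and 0.0377), and the median of the 5 was 0.09. Cyc1 was not called (log2 0.092, adjusted p = 0.826). It lies outside the symbol rule, so the complex III counts and sums above lack it. Transcriptional regulators of mitochondrial genes gave 3 lower and 1 higher of 15, among them Esrra, an orphan nuclear receptor (log2 -1.62, adjusted p = 0.00781), Tfam, which packages and transcribes mitochondrial DNA (-1.02, adjusted p = 0.0239), and Pprc1, a coactivator (-0.78, adjusted p = 0.0455). Ubiquinone synthesis gave 1 lower, Coq10b (-1.72, adjusted p = 0.0123), and 1 higher, Coq8b (0.99, adjusted p = 0.0448), of 13. Of 8 mitochondrially encoded subunits tested 1 was called, mt-Cytb of complex III, with 2118 and 4977 CPM in siTfap4 and 10945 and 9910.4 CPM in siNeg (log2 -1.56, SE 0.35, adjusted p = 0.0111). Without replicate 1 of siTfap4, 1 electron carrier and none of the regulators, ubiquinone genes or mitochondrially encoded subunits was called. Without replicate 1 of siNeg the counts were 1, 1, 0 and 2, and without replicate 2 of siNeg 3, 1, 1 and 1. Without replicate 2 of siTfap4 they were 1, 4, 4 and 1, without either siZic2 library 1, 2, 1 and 1, and without either siWiz library 2, 3, 1 and 1. In these fits 3.2% of all genes were called without replicate 1 of siTfap4 and 23.0% without its replicate 2, 5.48% and 12.8% without replicates 1 and 2 of siNeg, 10.9% without either siZic2 library, and 15.0% and 15.2% without replicates 1 and 2 of siWiz. In siWiz and siZic2 none of the genes on these lists was called against siNeg.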

How the data were processed

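Polyadenylated RNA was counted per gene in 8 libraries. The deposited values are raw counts by the authors, with no normalization. Reads were trimmed with Trim Galore and the build is GRCm38, per the submitters' processing notes. For aligner, counting program, strand and molecular identifiers the choice is not given in the sources used, so precision estimates cover the spread between libraries and not copies made by PCR.

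All 8 columns were mapped to samples by name. Gene names and ends came from GENCODE M21, matching 55154 of 55421 identifiers. Genes passing filterByExpr (14647) were scaled by TMM and fitted with edgeR 4.0.16 in R 4.3.3, by its quasi-likelihood test, with all 8 libraries and 4 group means in 1 fit. The common dispersion was 0.0495. In each of 6 comparisons, Benjamini-Hochberg adjustment covered all genes tested, and the threshold was 0.05. "Rose", "fell", "higher" and "lower" as calls mean passing it. The SE was derived from the F statistic. Counting noise alone did not account for the spread within groups (18.7 to 39.6 chi-square units per degree of freedom).

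Alternatives were DESeq2 1.42.0, RLE size factors, library totals, no filter, a mean of 5 CPM, the compared groups alone, protein-coding genes alone, a replicate block and each library left out. Where 1 library was dropped, its partner was taken to vary as the other groups do. Added after seeing the data were a loess correction (span 0.5) for end GC content and a fit without siTfap4. Named were, by smallest p, up to 10 called members per direction against siNeg (or 3 if none was called), up to 5 per pair of siPOOLs and 3 per list, with the member of largest mean CPM per complex, the isoform families and the targeted genes. The members, lists and tests were chosen with earlier results of these data known.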

Additional observations from a re-analysis of the deposited data

How the results depend on the processing

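In siTfap4 against siNeg, 16 members were called, 26 with no filter on low counts, and 8 to 27 with 1 library left out. Against siWiz 14 were called, 23 with no filter and 7 to 26 with 1 library left out, and against siZic2 21, with 8 to 32. With no filter, 28.0% of members and 10.9% of all genes were called in siTfap4 against siNeg. In siTfap4 against siWiz 24.7% of members and 10.6% of all genes were. With no filter 1 member, Sdhd, was called in siWiz against siNeg, where 0.0445% of all genes were. Sdhd was also the 1 member called in siWiz against siZic2, where 0.0853% of all genes were. No member was called in siWiz or siZic2 against siNeg in the other alternatives. The replicate numbers pair only 2 libraries a group, and nothing in the labels says what they share. With the replicate number as a block 33, 25 and 42 members were called in siTfap4 against siNeg, siWiz and siZic2, which are 37.1%, 28.1% and 47.2% of the members, where 22.1%, 20.9% and 30.0% of all genes were called, and 0 in the other comparisons. The correlation of replicate differences over 14647 genes ran from -0.04 (siTfap4 and siWiz) to 0.33 (siWiz and siNeg).

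Medians by complex in siTfap4 against siNeg moved to 0.19 in complex II at a mean of 5 CPM, which leaves fewer genes, and to 0.0054 in complex V with the end GC correction. Against siWiz they were -0.0031 in complex II at 5 CPM and, with the GC correction, -0.38 in III, -0.12 in V and -0.0513 in the assembly factors. Against siZic2 they were 0.19 in II and 0.45 in V at 5 CPM, and -0.10 in III and -0.16 in V with the GC correction. The cause was not tested. With 1 library left out the medians in siTfap4 against siNeg ran from -0.0903 to 0.55 in I, -1.28 to -0.34 in II, -0.10 to 0.72 in III, -0.35 to 0.17 in IV, -0.11 to 0.39 in V and -0.21 to 0.23 in the assembly factors. Against siWiz they ran from -0.18 to 0.10 in I, -1.49 to -0.62 in II, -0.22 to 0.15 in III, -0.51 to 0.0417 in IV, -0.19 to 0.32 in V and -0.35 to -0.0927 in the assembly factors, and against siZic2 from -0.0198 to 0.31 in I, -1.39 to -0.88 in II, 0.10 to 0.47 in III, -0.47 to 0.19 in IV, -0.0731 to 0.27 in V and -0.28 to 0.043 in the assembly factors. In siWiz against siNeg they ran from -0.0735 to 0.61 in I, -0.10 to 0.36 in II, -0.0621 to 0.66 in III, -0.0757 to 0.44 in IV, -0.0942 to 0.47 in V and -0.0492 to 0.42 in the assembly factors. In siZic2 against siNeg the ranges were -0.33 to 0.36 in I, -0.17 to 0.23 in II, -0.34 to 0.40 in III, -0.22 to 0.31 in IV, -0.23 to 0.37 in V and -0.012 to 0.28 in the assembly factors, and in siWiz against siZic2 0.0217 to 0.42 in I, -0.0909 to 0.10 in II, 0.028 to 0.39 in III, 0.0578 to 0.30 in IV, -0.0345 to 0.27 in V and -0.0448 to 0.18 in the assembly factors.

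In siTfap4 against siNeg the compared groups alone gave 6 called other assembly factors and 5 genes of the tricarboxylic acid cycle list. That fit also gave 2 regulators and 1 ubiquinone gene, and library totals gave 1 ubiquinone gene. The GC correction gave 1 electron carrier, 1 regulator and 2 mitochondrially encoded subunits, and DESeq2 and no filter 2 of the last. With 1 library left out the lists held 1 to 3 electron carriers, 2 to 14 assembly factors, 2 to 10 cycle genes, 0 to 4 regulators, 0 to 4 ubiquinone genes and 0 to 2 mitochondrially encoded subunits. Sdhd in siWiz against siNeg changed sign without replicate 1 of siNeg (log2 1.34), its leave-one-out values running from -2.71 to 1.34. Of 256 values of named members with 1 library left out, 226 kept their direction and side of the threshold and 29 lost the call, and of 290 under the other alternatives 283 kept both. The spread between libraries, a coefficient of variation of 22.2% with 2 libraries a group, limits what could be called.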
